A study of Mus musculus with 2 samples.

Results

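Oxidative phosphorylation makes most of the ATP of the heart. Complexes I and II pass electrons from NADH and succinate to ubiquinone, complex III passes them to cytochrome c, complex IV passes them to oxygen, and complex V, the ATP synthase, uses the proton gradient built by complexes I, III and IV. Most subunits are encoded in the nucleus and imported, while a few subunits of complexes I, III, IV and V are encoded by mitochondrial DNA and were not analysed here. The nuclear-encoded genes described here are the entries whose symbol begins with Nduf, Uqcr or Atp5, together with Sdha to Sdhd, Cyc1, Cycs, Cox5a, Cox5b, Cox6b1, Cox6c, Cox7b and Cox7c, without symbols that contain -ps. The rule uses names and no measured value. It gave 87 of 55348 gene entries, and 83 of them had a mean over the libraries of at least 1 CPM (read counts scaled to a common library size): 74 subunits of the complexes or cytochrome c, 8 assembly factors of complex I (Ndufaf1 to Ndufaf8) and Ndufa4l2, a paralog of the complex IV subunit Ndufa4. The assembly factors and the paralog are no fixed parts of the finished complexes and are counted apart where stated.

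RNA was sequenced from mouse embryonic hearts of strain 129sv at E13.5 (mid-gestation), in 1 wild-type library and 1 library of hearts homozygous for the H222P missense mutation of Lmna (Lmna H222P/H222P). Lmna encodes A-type lamins, filament proteins that line the inside of the nuclear envelope, and this mutation is carried by mice used to model inherited laminopathy of heart and muscle. The number and the sex of the hearts behind each library are not given in the sources used here. With 1 library per genotype no test could be run, so differences are given between single libraries, without a replicate check or a p-value. Log2 ratios are Lmna H222P/H222P over wild type, after TMM scaling, and the 95% interval in parentheses after a ratio is an exact Clopper-Pearson interval that covers counting error only.

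The libraries held 32669225 (wild type) and 25120790 (H222P/H222P) reads assigned to genes, at which 3 reads correspond to 0.0968 and 0.113 CPM. Heart identity and the presence of other tissue were read from marker lists. All 15 cardiomyocyte markers were detected in both libraries and summed to 34857 CPM in wild type and 18152 CPM in H222P/H222P, with 12 of 15 at least 1.5-fold lower. Hepatocyte markers, of which 14 of 14 were at least 2-fold higher (5.95% of all genes), summed to 13.8 CPM and 6004 CPM, the latter being 0.633% of the reads of the H222P/H222P library (0.630 to 0.636%, exact binomial interval). None of these 14 was at 0 in wild type, where 4 had at most 3 reads. Erythroid markers summed to 11967 and 18802 CPM, with 9 of 14 at least 1.5-fold higher. Endothelial markers summed to 1076 and 688 CPM (6 of 8 lower), and fibroblast and mesenchyme markers to 4789 and 2308 CPM (6 of 8 lower and 1 higher). No marker on these lists was at 0 in either library. The part of these tissues and cell types in the results below was not tested, and in whole hearts fewer cells of a type and less RNA per cell cannot be told apart.

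All 83 measured genes had a lower TMM-scaled level in the H222P/H222P library than in wild type, and 82 of 83 did so with total counts as the only scaling. A ratio below 0 was found for 50.8% of the 14716 genes that reached the same mean of 1 CPM. Of the 83, 34 were at least 1.5-fold lower, against 11.4% of all genes, and 0 were at least 1.5-fold higher, against 10.9%. Scaled by total counts, which placed the median of all genes at 0.15, 16 were at least 1.5-fold lower. Only 2, Ndufs5 and Ndufa1, were at least 2-fold lower, against 4.35% of all genes. Most of these genes are abundant, and of 4491 protein-coding genes whose mean reached 50 CPM 8.46% were at least 1.5-fold lower and 56.7% had a ratio below 0. The interval lay wholly below 0 for 80 of the 83 (34.2% of all genes) and wholly past 1.5-fold lower for 30 (6.45%). The median log2 ratio was -0.55 (range -1.40 to -0.04), beside -0.01 for all genes with quartiles of -0.28 and 0.25. The differences were thus mostly modest in size and lay on 1 side. Together these genes took 1.89% of wild-type reads (1.89 to 1.90%, exact binomial interval) and 1.43% of H222P/H222P reads (1.43 to 1.44%). Their summed level was 19969 CPM in wild type and 13569 CPM in H222P/H222P, a log2 ratio of -0.56, beside -0.94 for the sum of the cardiomyocyte markers. All 34 of the genes past 1.5-fold were subunits or cytochrome c, whose 74 ratios had a median of -0.57 and none above -0.25.

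**Figure D1:**
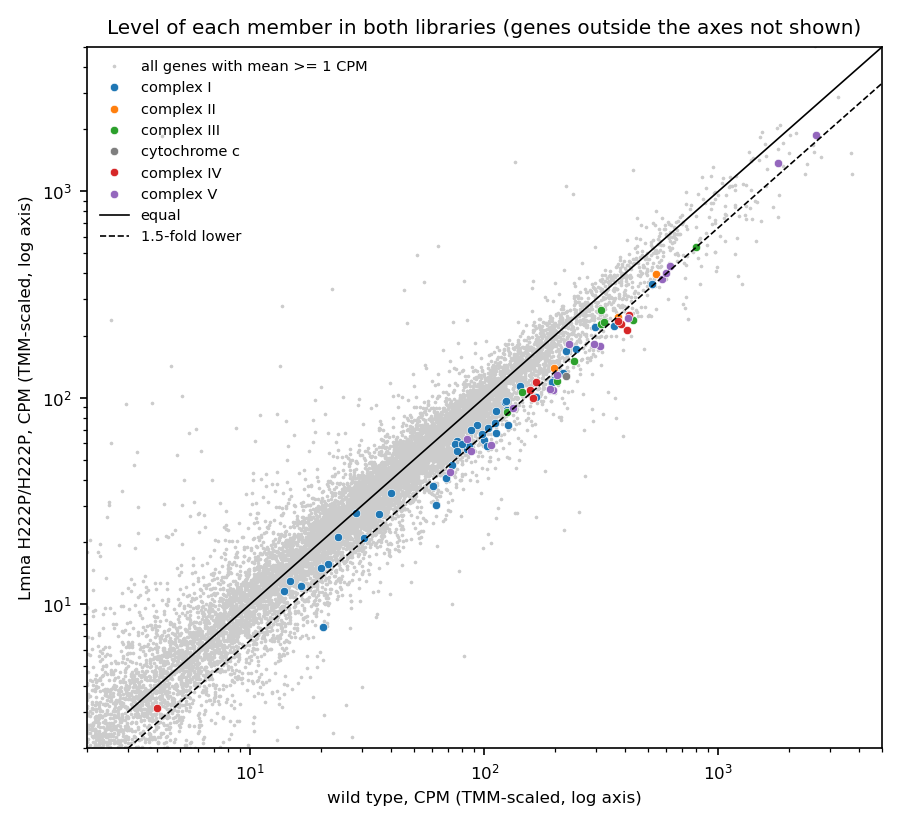
Each coloured point is a nuclear-encoded oxidative phosphorylation gene, placed by its TMM-scaled CPM in the wild-type library (x, log axis) and in the Lmna H222P/H222P library (y, log axis). Grey points are all genes whose mean reached 1 CPM, the solid line marks equal levels and the dashed line 1.5-fold lower; all 83 coloured points lie below the solid line.

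Promoters of these genes are known to bind NRF1, ETS factors such as GABPA, the estrogen-related receptors and YY1, so these motifs were looked for in the RefSeq promoter windows (250 bases before to 50 after each annotated start, GRCm38.p6). To show what such a promoter looks like, the 250 bases before the start are printed for the subunit with the lowest ratio in each complex among those with a match there and a single listed start. Each runs 5′ to 3′ on the strand of its gene, which is the minus strand in all 5 cases, and ends at the base before the start. Capitals mark a match to the NRF1 letters (GCGCA, any base, then GCGC), or to the ETS letters CCGGAAG, which in all of these promoters are on the opposite strand and so read CTTCCGG. Ndufs5 (chr4:123718187-123718436) and Sdhd (chr9:50603850-50604099) have an NRF1 match, 88 and 69 bases before the start. Sdhd, Uqcrh (chr4:116075071-116075320), Cox6b1 (chr7:30626115-30626364) and Atp5e (chr2:174464102-174464351) have an ETS match, 39, 3, 21 and 95 bases before the start.
Ndufs5: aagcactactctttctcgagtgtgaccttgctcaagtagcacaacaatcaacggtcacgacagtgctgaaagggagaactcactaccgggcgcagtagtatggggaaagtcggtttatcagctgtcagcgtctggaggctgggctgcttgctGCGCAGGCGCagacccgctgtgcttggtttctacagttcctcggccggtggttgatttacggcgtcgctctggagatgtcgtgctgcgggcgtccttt
Sdhd: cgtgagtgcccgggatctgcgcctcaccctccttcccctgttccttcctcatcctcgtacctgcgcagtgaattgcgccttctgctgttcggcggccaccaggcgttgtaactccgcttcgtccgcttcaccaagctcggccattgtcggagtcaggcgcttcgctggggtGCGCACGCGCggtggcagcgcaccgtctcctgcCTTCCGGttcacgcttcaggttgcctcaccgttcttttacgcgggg
Uqcrh: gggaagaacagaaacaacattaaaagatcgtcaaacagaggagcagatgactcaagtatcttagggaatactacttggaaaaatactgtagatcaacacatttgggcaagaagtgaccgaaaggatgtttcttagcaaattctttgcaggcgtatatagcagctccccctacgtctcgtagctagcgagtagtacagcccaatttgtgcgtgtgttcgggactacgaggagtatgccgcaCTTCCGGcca
Cox6b1: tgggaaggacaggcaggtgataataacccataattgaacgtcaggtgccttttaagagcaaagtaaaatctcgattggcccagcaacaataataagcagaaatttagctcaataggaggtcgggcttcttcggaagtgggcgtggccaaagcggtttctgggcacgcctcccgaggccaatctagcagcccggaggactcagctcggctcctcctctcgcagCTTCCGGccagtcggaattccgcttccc
Atp5e: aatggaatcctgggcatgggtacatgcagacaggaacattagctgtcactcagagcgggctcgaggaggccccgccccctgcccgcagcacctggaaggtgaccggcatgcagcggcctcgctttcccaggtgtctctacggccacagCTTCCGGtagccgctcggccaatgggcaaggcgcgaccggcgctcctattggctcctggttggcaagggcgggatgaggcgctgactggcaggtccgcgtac

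The windows of 61 of the 74 measured subunits and cytochrome c could be matched by symbol. Letters of NRF1 were present in at least 1 window of 15 of these genes (24.6%), compared with 11.1% of 10502 measured protein-coding genes and 5.19% of all 27025 genes of the table. Those of ETS were present in 15 (24.6%, beside 19.1% and 9.93%), those of YY1, AAGATGGCG, in 7 (11.5%, beside 3.36% and 1.64%), and those of ERRA, TCAAGGTCA, in 2 (3.28%, beside 0.333% and 0.466%). Both strands were read, and a promoter could hold several motifs. At least 1 of the 4 was present for 32 of the 61 genes (52.5%, beside 30.1% and 15.5%). The median log2 ratio was -0.58 with an NRF1 match and -0.61 without, -0.59 and -0.57 for ETS, and -0.70 (7 genes) and -0.58 for YY1. A match is a string of letters, and binding was not measured.

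In complex I, the NADH dehydrogenase and the largest complex of the chain, all 36 measured subunits were lower in H222P/H222P, 14 of them at least 1.5-fold, with a median log2 ratio of -0.55. The 7 nuclear core subunits, which carry the flavin and the iron-sulfur clusters or form the ubiquinone site, had a median of -0.41, with 1 of 7 past 1.5-fold. The 29 accessory subunits, which surround the core and are needed to build or hold it, had a median of -0.56, with 13 of 29 past 1.5-fold. The lowest ratios were thus found mostly outside the redox core. Most accessory subunits also have principal transcripts under 1000 bases, unlike most core subunits, and the part of length was not tested.

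Ndufs1, the large iron-sulfur subunit of the NADH-oxidising N module and the subunit of complex I with the most reads (chr1:63143596-63176833), had 16147 reads in wild type and 9459 in H222P/H222P. Its level was 521 and 357 CPM, a log2 ratio of -0.55 (-0.58 to -0.51). Ndufv1, which binds the flavin and NADH, had 6892 and 4438 reads, at a log2 ratio of -0.41 (-0.46 to -0.35). Ndufv2, its iron-sulfur partner, was the only core subunit past 1.5-fold: 357 and 223 CPM, a log2 ratio of -0.68 (-0.72 to -0.63). In the Q module, where ubiquinone is reduced, the core subunit Ndufs7, which holds the cluster nearest to ubiquinone, had 2368 and 1627 reads (76.4 and 61.4 CPM), at a log2 ratio of -0.32 (-0.41 to -0.22). The core subunits Ndufs3 and Ndufs8 of the same module both had a log2 ratio of -0.36. These 3 core subunits therefore lay close together, and the accessory Ndufa5 of the module stood below them with 3175 and 1539 reads and a log2 ratio of -0.82 (-0.91 to -0.73). Among the accessory subunits of the N module, Ndufs4 (-0.73) and Ndufa12 (-0.68) were past 1.5-fold, while Ndufv3, Ndufs6, Ndufa2, Ndufa6 and Ndufa7 lay between -0.54 and -0.34.

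The membrane arm of complex I pumps protons through mitochondrially encoded subunits, and its nuclear accessory subunits hold these together. In its proximal part 7 of 9 accessory subunits were at least 1.5-fold lower (median -0.74), compared with 3 of 11 in the distal part (median -0.56). Ndufs5, a small accessory subunit facing the intermembrane space (chr4:123712710-123718202), had the lowest ratio of all 83 genes: 633 reads in wild type and 205 in H222P/H222P, or 20.4 and 7.74 CPM, a log2 ratio of -1.40 (-1.63 to -1.17). Its near-identical copy on chromosome 16 makes this value uncertain, as given below. Ndufa1, encoded on the X chromosome (chrX:37187588-37191163), had 1921 and 803 reads (62.0 and 30.3 CPM), at a log2 ratio of -1.03 (-1.15 to -0.91). The 3 X-linked genes, Ndufa1, Ndufb11 and Cox7b, were all at least 1.5-fold lower (median -0.76), beside 34 of all 83 and 11.4% of all genes. X-linked genes outside the rule were not compared, so these 3 genes show no pattern of the chromosome. After Ndufa1 in the proximal part came Ndufa11 (-0.77), Ndufa3 (-0.76), Ndufa13 (-0.74), Ndufc2 (-0.72) and Ndufc1 (-0.70), whereas Ndufa8 (-0.46) and Ndufa10 (-0.31) were nearer to 0. In the distal part Ndufb5 (-0.71), Ndufb11 (-0.70) and Ndufb8 (-0.63) were past 1.5-fold. The least lowered complex I subunit was Ndufb2, with 432 and 306 reads (13.9 and 11.6 CPM) and a log2 ratio of -0.27 (-0.49 to -0.06).

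The Ndufaf assembly factors help to build complex I and leave it when it is finished. By median (-0.27) they were closer to equal than the subunits they assemble, though the ranges overlapped. Ndufaf5, for example, was lower than the subunit Ndufs7. Past 1.5-fold lower were 0 of 8, beside 11.4% of all genes, and with 8 genes this count is near that share. Ndufaf4, the one with the most reads, had 2320 and 1582 reads (74.9 and 59.7 CPM), at a log2 ratio of -0.33 (-0.42 to -0.23). Ndufaf5 was lowest, with 663 and 414 reads and a log2 ratio of -0.45 (-0.63 to -0.27). Ndufaf1 had 879 and 730 reads (28.4 and 27.6 CPM), at a log2 ratio of -0.04 (-0.19 to 0.10), the value nearest to 0 among all 83 genes. For Ndufaf1 and Ndufaf6 (-0.19) the interval held 0.

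**Figure D2:**
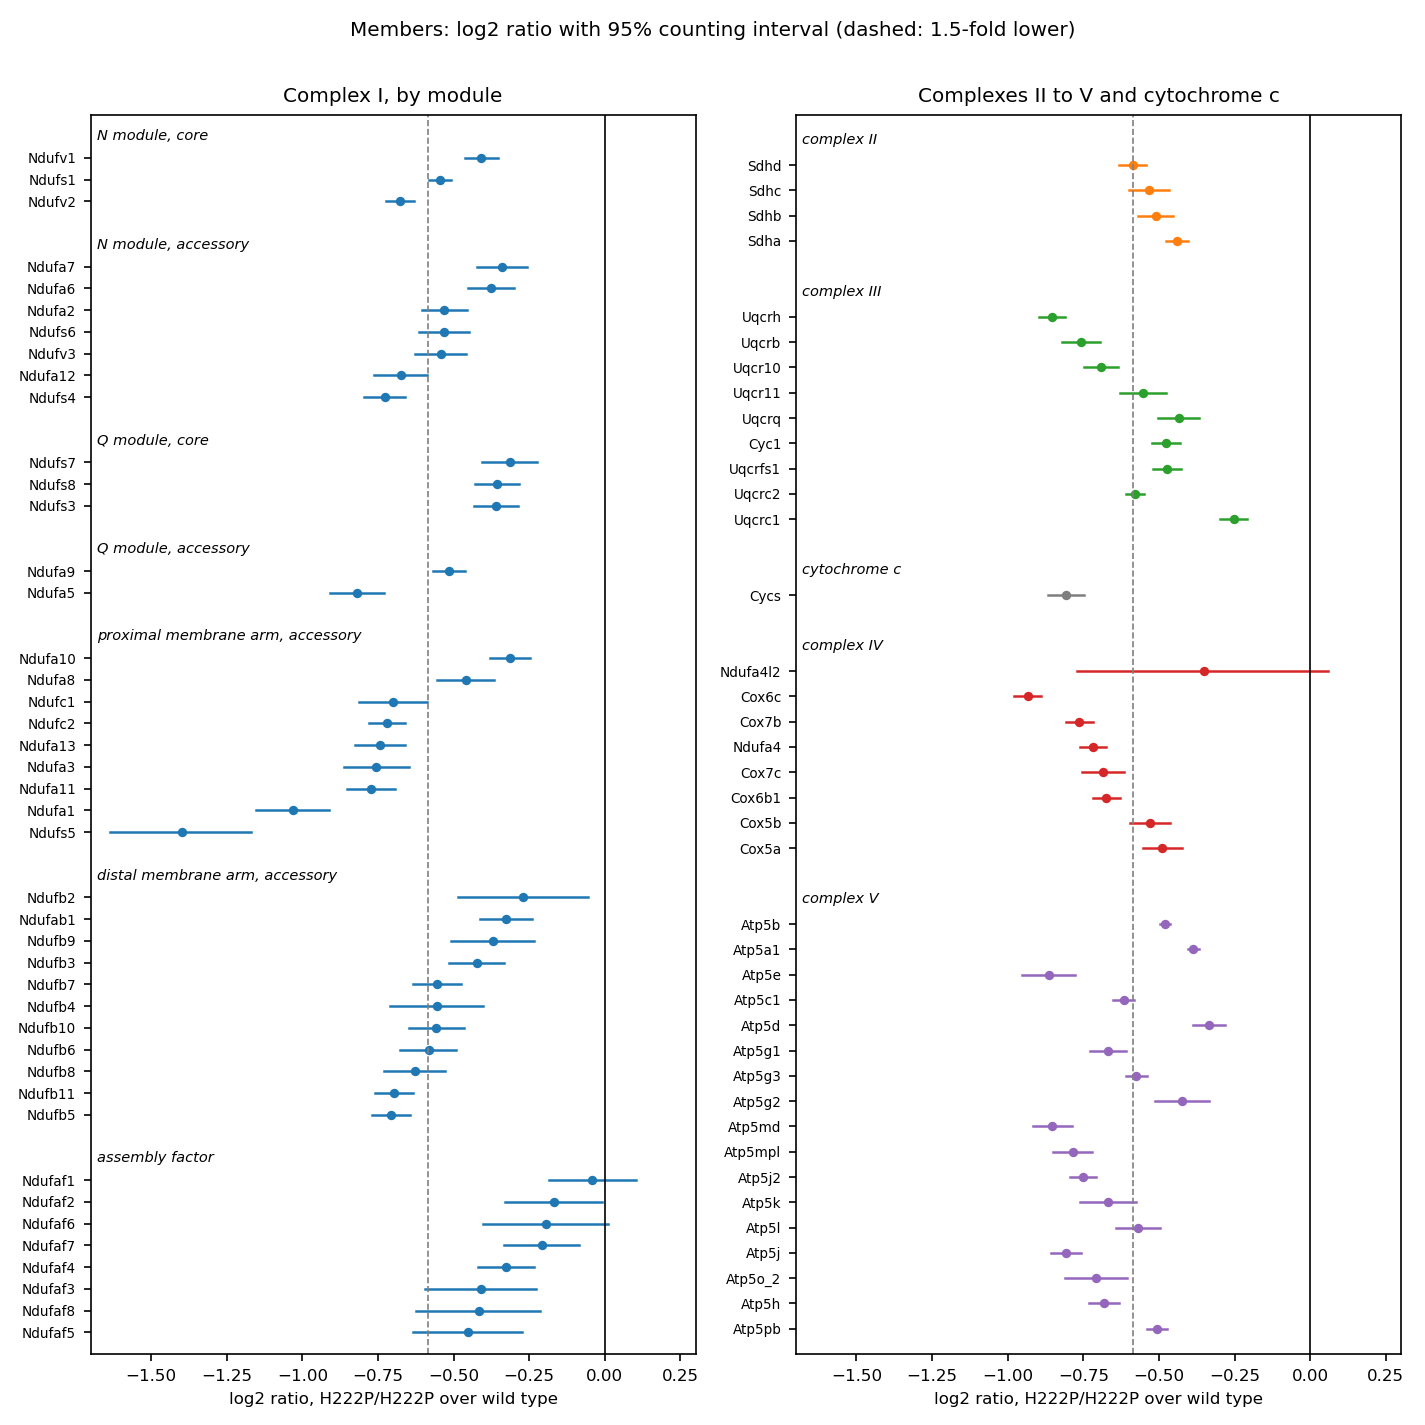
Points give the log2 ratio of the measured genes, Lmna H222P/H222P over wild type (x), and bars its 95% counting interval, with complex I by module on the left and complexes II to V and cytochrome c on the right. The solid line marks 0 and the dashed line 1.5-fold lower; Ndufs5 at -1.40 and Ndufa1 at -1.03 lie farthest to the left, and the assembly factors lie between -0.45 and -0.04.

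Complex II, succinate dehydrogenase, is the only complex of the chain encoded wholly in the nucleus and also works in the citric acid cycle. Its 4 subunits had the narrowest range of any complex with several members, from -0.59 to -0.44 (median -0.52). Sdha, the flavin subunit that oxidises succinate, had 16775 reads in wild type and 10571 in H222P/H222P (541 and 399 CPM), at a log2 ratio of -0.44 (-0.48 to -0.40). Sdhb, the iron-sulfur subunit, had 6141 and 3683 reads, at a log2 ratio of -0.51 (-0.57 to -0.45). The membrane anchors were Sdhc, with 4859 and 2871 reads and a log2 ratio of -0.53 (-0.60 to -0.47), and Sdhd, with 11507 and 6548 reads and a log2 ratio of -0.59 (-0.63 to -0.54). Only Sdhd was past 1.5-fold, by a narrow margin.

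In complex III, which passes electrons from ubiquinol to cytochrome c, 3 of 9 subunits were at least 1.5-fold lower (median -0.55, range -0.85 to -0.25). Both nuclear redox subunits lay together: Uqcrfs1, the Rieske iron-sulfur protein, with 10008 and 6166 reads and a log2 ratio of -0.47 (-0.52 to -0.43), and Cyc1, cytochrome c1, with 9811 and 6023 reads and a log2 ratio of -0.48 (-0.52 to -0.43). The large core-like subunits did not. Uqcrc2 had 24929 and 14258 reads (805 and 538 CPM), at a log2 ratio of -0.58 (-0.61 to -0.55), while Uqcrc1 had 9788 and 7022 reads (316 and 265 CPM), at a log2 ratio of -0.25 (-0.30 to -0.21), the value nearest to 0 among all subunits. The intervals of this pair do not overlap. Among the 5 accessory subunits the lowest ratio was that of Uqcrh, the acidic hinge protein that contacts cytochrome c1 (chr4:116066965-116075071), with 13358 and 6322 reads (431 and 239 CPM) and a log2 ratio of -0.85 (-0.90 to -0.81). Uqcrb (-0.76) and Uqcr10 (-0.69) were also past 1.5-fold, and Uqcr11 (-0.55) and Uqcrq (-0.44) were not. Cycs, cytochrome c itself, the mobile carrier to complex IV, had 6930 and 3385 reads (224 and 128 CPM), at a log2 ratio of -0.81 (-0.87 to -0.75).

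Complex IV, cytochrome c oxidase, and complex V had the lowest medians of the complexes. Of the 7 complex IV subunits chosen by the rule, 5 were at least 1.5-fold lower (median -0.68, range -0.93 to -0.49). Cox6c (chr15:35925886-35938246) had 12609 reads in wild type and 5642 in H222P/H222P (407 and 213 CPM), at a log2 ratio of -0.93 (-0.98 to -0.89). Cox7b (-0.76), Cox7c (-0.68) and Cox6b1 (-0.67) followed, while Cox5b (-0.53) and Cox5a, with 5171 and 3150 reads and a log2 ratio of -0.49 (-0.55 to -0.42), were nearer to 0. Ndufa4, named for complex I but now counted as a subunit of complex IV, had 12831 and 6662 reads (414 and 252 CPM), at a log2 ratio of -0.72 (-0.76 to -0.68). Its paralog Ndufa4l2, known as a hypoxia-induced gene, had 124 and 83 reads, with an interval that held 0 (log2 ratio -0.35, -0.77 to 0.06). Ndufa4l2 made up 0.957% of the reads of this pair in wild type (0.797 to 1.14%, exact binomial interval) and 1.23% in H222P/H222P (0.981 to 1.52%), so its share was small in both and no difference was detectable at this depth.

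The complex IV subunits outside the rule come partly in a form found in most tissues and a form of heart and skeletal muscle. Of these 10 genes 4 were at least 1.5-fold lower and 0 higher (median -0.53). The 3 muscle forms had the lowest ratios: Cox8b had 425 and 84 reads (log2 ratio -2.11), Cox7a1 664 and 236 (-1.26) and Cox6a2 2500 and 960 (-1.15). Their counterparts in most tissues were Cox8a (-0.55), Cox7a2 (-0.90) and Cox6a1 (-0.38), all nearer to 0. Cox4i1 had the most reads, 13108 and 8171 (log2 ratio -0.46), and Cox6b2, described as a testis form, was higher in H222P/H222P with 156 and 175 reads (0.39, 0.07 to 0.71). Cox7a1, Cox6a2, Cox8a, Cox7a2 and Cox6a1 were named after their values were seen.

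Complex V, the ATP synthase, had 17 measured members, of which 10 were at least 1.5-fold lower (median -0.67, range -0.86 to -0.34). By median (-0.43) the catalytic head was the part closest to equal. Both of its principal transcripts are over 1000 bases, and the part of length was not tested. Atp5b, the beta subunit that makes ATP (chr10:128083273-128090391), had more reads than any other of the 83 genes, 81031 in wild type and 49663 in H222P/H222P (2615 and 1875 CPM), a log2 ratio of -0.48 (-0.50 to -0.46). Atp5a1, the alpha subunit, had 55431 and 36254 reads (1789 and 1369 CPM), at a log2 ratio of -0.39 (-0.41 to -0.37). The central stalk, which turns inside the head, was split: its delta subunit Atp5d had 7113 and 4819 reads and a log2 ratio of -0.34 (-0.39 to -0.28), the highest of complex V, while its epsilon subunit Atp5e (chr2:174461072-174464105) had 3323 and 1561 reads (107 and 58.9 CPM) and a log2 ratio of -0.86 (-0.95 to -0.78), the lowest. Of the 5 small accessory subunits of the membrane part 4 were past 1.5-fold (median -0.75), among them Atp5md at -0.85 and Atp5mpl at -0.79. The peripheral stalk, which keeps the head from turning, had 3 of 4 past 1.5-fold: Atp5j (-0.81), the entry Atp5o_2 (-0.71) and Atp5h (-0.68), while Atp5pb was at -0.51.

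The proton-carrying c ring is made of 1 protein encoded by 3 genes that differ in their import peptide. Atp5g3 had 18548 and 10643 reads, at a log2 ratio of -0.58 (-0.61 to -0.54), Atp5g1 had 6337 and 3409, at a log2 ratio of -0.67 (-0.73 to -0.61), and Atp5g2 had 2609 and 1664, at a log2 ratio of -0.42 (-0.51 to -0.33). As shares of the c-ring reads, Atp5g3 was at 67.5% in wild type and 67.7% in H222P/H222P. Atp5g1 was at 23.0% (22.6 to 23.6%) and 21.7% (21.05 to 22.3%), and Atp5g2 at 9.49% (9.15 to 9.84%) and 10.6% (10.1 to 11.1%). The shares of Atp5g1 and Atp5g2 differed by more than counting error between these libraries, though by less than 2 percentage points. Near-identical stretches elsewhere cover 17.5% of the Atp5g1 and 16.9% of the Atp5g2 transcript. Their part in these shares was not tested.

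Per length of the principal transcript, in RPKM (CPM divided by the length in kilobases), the levels of the subunits spanned a wide range. In wild type Atp5b was highest at 1365 RPKM, followed by Atp5g3 (833), Uqcrh (788), Ndufa4 (780) and Atp5a1 (724). The median was 405 RPKM over 16 complex V subunits with a length, 384 over the 7 of complex IV, 280 over the 9 of complex III, 180 over the 4 of complex II and 122 over the 36 of complex I. In H222P/H222P the medians were 248, 226, 191, 130 and 79.5 RPKM, in the same order. The Ndufaf assembly factors lay far below the subunits, with a median of 20.1 RPKM in wild type and 16.1 in H222P/H222P. The lowest level of a subunit per length was that of Ndufb2 (5.78 and 4.79 RPKM). Its length was taken as 2413 bases, and the value depends on this annotated length.

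Short transcripts had the lower ratios. Among the subunits and cytochrome c with a principal transcript under 1000 bases, 23 of 43 were at least 1.5-fold lower (median -0.67), compared with 10 of 30 longer ones (median -0.51). Across the 73 genes with a length, Spearman's rho between length and log2 ratio was 0.42, and that with the GC content of the transcript was 0.33. These are descriptions across genes of the same pair of libraries, and genes are not independent replicates. The same direction was seen outside these genes. Among protein-coding genes outside the rule whose mean reached 50 CPM, those under 1000 bases had a median of -0.14, with 17.1% of 234 at least 1.5-fold lower and 74.8% below 0, beside a median of -0.03 for 4189 longer ones. The median of the short oxidative phosphorylation genes thus lay 0.53 lower than that of other short genes, and that of the long ones 0.48 lower than that of other long genes. Lengths were not matched within these groups. The longest of the 73 had 3171 bases, while the median length of all 4491 protein-coding genes at this level was 3427 bases. The part of transcript length in the ratios was not tested.

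**Figure D3:**
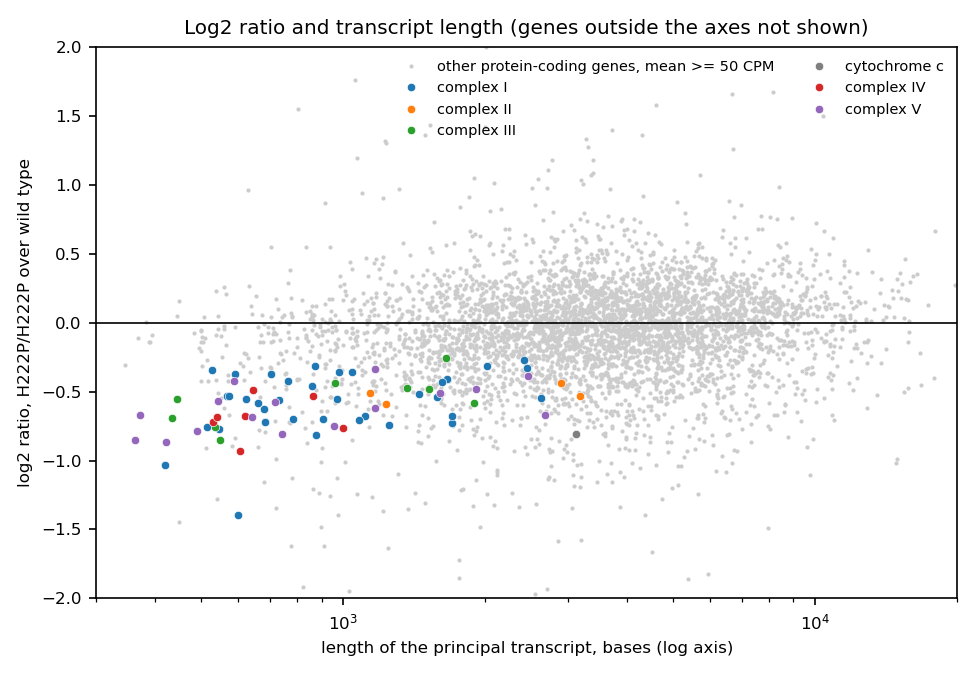
Coloured points are the subunits of each complex and cytochrome c, placed by the length of the principal transcript (x, bases, log axis) and the log2 ratio, Lmna H222P/H222P over wild type (y). Grey points are other protein-coding genes whose mean reached 50 CPM; genes of the complexes lie below 0 at every length, and those under 1000 bases have a median of -0.67 against -0.51 for the longer ones.

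Several of these genes have near-identical copies in the genome, and reads that map to more than 1 place are not in the gene counts. By alignment of transcripts (at least 95% identity over at least 100 bases and at least 20% of the transcript) 20 of the 74 subunits had copies among the entries, 35 copies in all, of which 13 reached a mean of 1 CPM. Of these 13 copies 12 had a ratio below 0 (median -0.43), as their parent genes did. The exception was the Ndufs5 copy on chromosome 16, listed as Ndufs5-ps (683 and 661 reads, log2 ratio 0.18, 0.02 to 0.34), which matches 46.9% of the Ndufs5 transcript. Reads of Ndufs5 and this copy summed to 1316 in wild type and 866 in H222P/H222P, a log2 ratio of -0.38 (-0.50 to -0.25) in place of -1.40. With its copy, then, Ndufs5 was no longer past 1.5-fold. For Ndufa12 the ratio went from -0.68 to -0.61 with its copy, and for Cycs from -0.81 to -0.78. The other 17 moved less than Cycs did. With copies added, Ndufa1, which has none, had the lowest ratio.

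**Figure D4:**
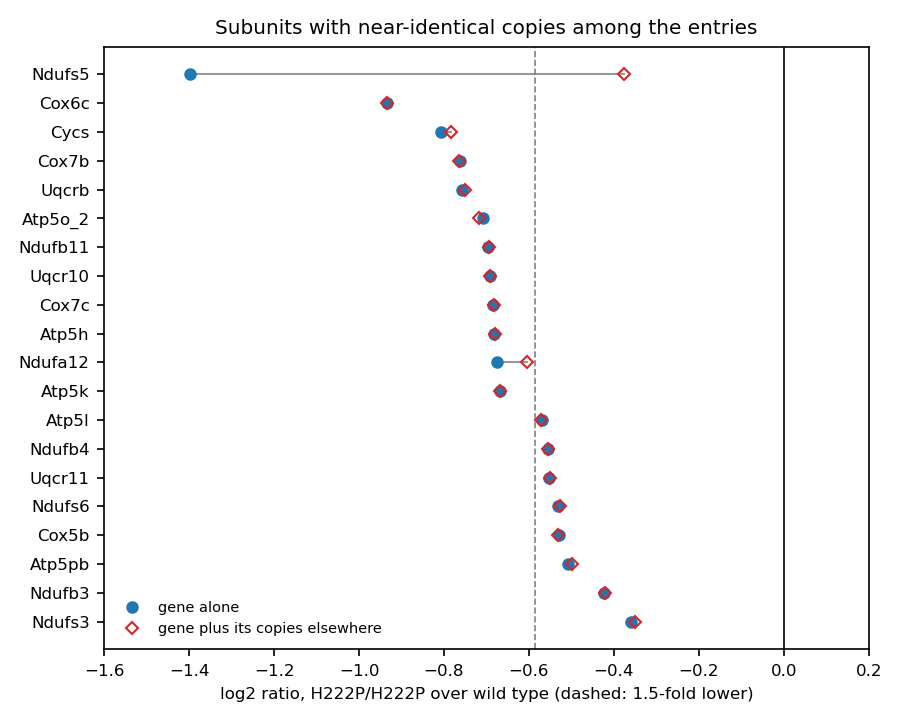
For the 20 subunits with near-identical copies among the gene entries, filled circles give the log2 ratio of the gene alone and open diamonds that of the gene with the reads of its copies added (x, Lmna H222P/H222P over wild type). Ndufs5 moves from -1.40 to -0.38, across the dashed line at 1.5-fold lower, and the others move little.

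Other mitochondrial lists had medians nearer to 0. Mitochondrial ribosomal proteins, which translate the mitochondrially encoded subunits, had 1 of 77 at least 1.5-fold lower (Mrpl42, -0.78), 0 higher and a median of -0.10. The list of outer membrane and import genes had 1 of 24 lower (Timm17a, -0.60) and a median of -0.17, with the import channel Tomm40 at 0.21. It also held genes of other roles. Among them were Hspd1 (0.12), a chaperone that folds proteins inside the mitochondrion, and the inner membrane genes Immt and Phb. Assembly factors outside the rule had 3 of 39 lower, led by Lyrm7, which helps to insert the Rieske protein (260 and 96 reads, log2 ratio -1.21), and a median of -0.26. The gene of this list with the most reads was Lrpprc, at -0.15, which acts on mitochondrial mRNAs and is not itself an assembly factor. Bcs1l was at 0.04. The citric acid cycle feeds the chain, and its list here also held the pyruvate dehydrogenase genes Pdha1, Pdhb, Dlat and Pdhx. This list lay between the lists above and the subunits: 6 of 18 genes were lower and 0 higher (median -0.46). Pdha1 and Pdhb were among the 6. Ratios of the list ran from Idh2, with 29852 and 13470 reads (log2 ratio -0.92), to Pdhx at -0.19. Of the carriers for ATP, ADP and phosphate, Slc25a4, the heart form of the ADP/ATP carrier, had 40305 and 20413 reads (log2 ratio -0.76), and the phosphate carrier Slc25a3 was at -0.22. In these libraries the subunits, then the list of citric acid cycle and pyruvate dehydrogenase genes, stood lowest by median among the mitochondrial lists. The ribosomal proteins of the mitochondrion stood nearest to the median of all genes.

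**Figure D5:**
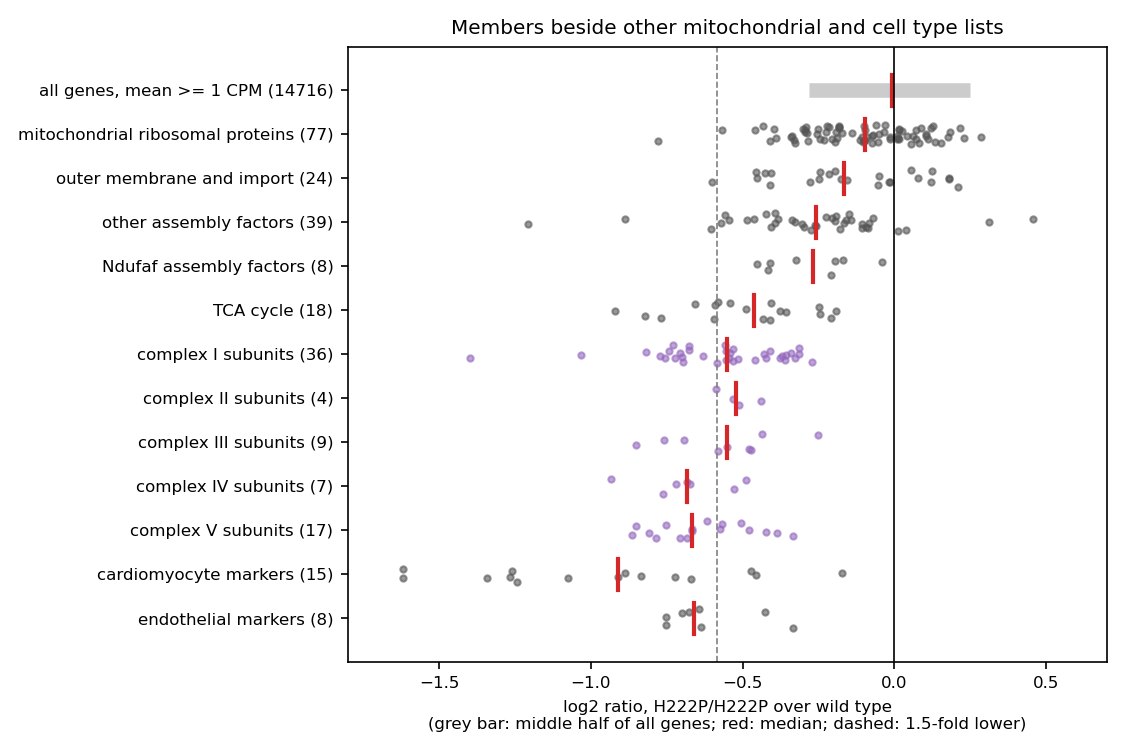
Each point is a gene, placed by its log2 ratio, Lmna H222P/H222P over wild type (x), in rows by list with the number of measured genes; red marks the median and the grey bar spans the quartiles of all genes. Medians of the subunits of complexes I to V lie between -0.68 and -0.52. Beside them, the median is -0.10 for mitochondrial ribosomal proteins, -0.46 for citric acid cycle and pyruvate dehydrogenase genes (row TCA cycle) and -0.91 for cardiomyocyte markers.

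Of 19 regulators known to act on these genes 6 were at least 1.5-fold lower, 0 were higher and the median was -0.13. Mef2a, a muscle transcription factor, had 9063 and 4310 reads (log2 ratio -0.85), and Esrrb, an estrogen-related receptor, had 313 and 123 (-1.12). Nrf1, the factor named for its part in respiratory gene expression, was higher in H222P/H222P with 1062 and 1250 reads (log2 ratio 0.46, 0.34 to 0.58). Of genes named after their values were seen, the coactivator Ppargc1a had 3250 and 1313 reads (-1.08, -1.17 to -0.99), and the estrogen-related receptors Esrra and Esrrg were at -0.67 and -0.71. Gabpa (-0.03), Yy1 (0.05) and Tfam (0.15), which are DNA-binding factors of nuclear respiratory genes or of mitochondrial DNA, were near 0. The ratios of the regulators thus pointed in both directions, unlike those of the subunits.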

How the data were processed

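The authors deposited, for each gene, raw read counts that were not normalized, in 3 columns (unstranded and each strand) with 4 summary entries. The submitters' processing notes name STAR, HTSeq, DESeq and build mm10; roles, versions and the annotation release are not given in the sources used here. RNA was extracted from hearts, per the labels. The reverse-strand column held 19.3 (wild type) and 20.5 (H222P/H222P) times the reads of the forward column and was used. Where genes overlap on opposite strands the unstranded column loses reads: Atp5l had 4118 reads in wild type by strand and 272 without. Summary entries stayed out of library sizes; assigned reads were 82.8% and 82.0% of all, and reads mapped to several places, which are not counted, 5.37% and 6.09%.

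Groups came from the genotype label. TMM factors (0.948 and 1.05, edgeR 4.0.16, R 4.3.3) scaled CPM. Ratios used a prior count of 0.5, and intervals came from scipy 1.17.1. Without molecular identifiers, reads may stem from the same molecule, so intervals and floors cover counting error only. Genes needed a mean of 1 CPM. Not measured were Ndufa11b (1 and 0 reads), Ndufb4c (21 and 12) and Ndufs6b (5 and 7), processed pseudogenes in GENCODE M21, and Atp5o (0 and 0), whose symbol the annotation gives to overlapping entries; the entry Atp5o_2 carried 2208 and 1156 reads, so its assignment is uncertain. Coordinates and lengths are those of GENCODE M21 (GRCm38, the assembly of mm10), copies were found with blastn 2.17.0, and promoters are RefSeq's for GRCm38.p6.

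The members and all gene lists were chosen with earlier results of these data known. Every member could be named. Full values went to the most abundant, highest and lowest member of each complex and of the assembly factors, the catalytic subunits (1 gene is not reported here by name), members at least 2-fold apart and paralog sets, and from other lists to the most abundant, highest and lowest gene that reached a mean of 5 CPM. Steps were tested on simulated data. As alternatives, scaling was repeated with total counts and with the size factors of DESeq2 1.42.0; further ones were scaling without liver, erythroid and globin genes, unstranded counts, other filters, a prior count of 5, thinning of the deeper library, subsets of members, means, and promoter bases before the start alone; adding the reads of copies was chosen after seeing the data.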

Additional observations from a re-analysis of the deposited data

How the results depend on the processing

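Scaling by total counts moved the median of all genes from -0.01 to 0.15 and the shares of all genes at least 1.5-fold lower and higher from 11.4% and 10.9% to 7.74% and 15.2%. Under it 16 members instead of 34 were at least 1.5-fold lower, and the median of the 83 was -0.40. The medians of complexes I to V were -0.37, -0.37, -0.40, -0.53 and -0.52, in place of -0.52, -0.52, -0.55, -0.68 and -0.67. Complex medians in this section are over all measured members, with the assembly factors in complex I and Ndufa4l2 in complex IV. With total counts 82 of 83 ratios stayed below 0, with Ndufaf1 as the exception. DESeq2 size factors gave 39 lower members, unstranded counts 35, thinning 37, a prior count of 5 gave 34, scaling without liver, erythroid and globin genes 34, and added copies 33; in these 6 settings all 83 were below 0. Without a filter on low counts the shares of all genes were 21.5% and 24.0%, and 1 member was at least 1.5-fold higher, Ndufs6b (5 and 7 reads). Of the 56 measured members without any match of at least 95% identity over at least 100 bases to another entry, however small a part of the transcript it covers, 18 were lower, and the medians of complexes III and IV were -0.47 and -0.58. Letters of YY1 were found for 1 of the 61 matched genes (1.64%) when the bases after the start were left out. In the same shorter window they were found for 1.29% of measured protein-coding genes and 0.71% of all genes of the table. The medians of the members and of complexes I to V stayed below 0 under each of these settings. No paired analysis was possible because each genotype has 1 library, and for the same reason no library could be left out. Depth limits Ndufaf6 and Ndufa4l2, whose intervals hold 0. The interval of Ndufaf1 also holds 0, around a log2 ratio of -0.04.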
